A study of Homo sapiens with 12 samples.

Results

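Integrin subunits and laminin chains were followed across 3 culture groups of MCF-10A, an immortalized human mammary epithelial line that does not form tumours. Members were chosen by gene symbol: every gene whose probe set was annotated as an integrin alpha or beta subunit (ITGA or ITGB with a number or a single letter, ITGA2B included) or as a laminin chain (LAMA, LAMB or LAMC with a number). A named probe set was in use for 33 such genes, out of 17687 genes with one. These were 25 integrin subunits and 8 laminin chains.

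The groups were 4 co-cultures of both lines, 4 cultures of the HER2 L755S line alone and 4 cultures of the PIK3CA E545K line alone, and each culture gave 1 array. HER2 L755S changes the kinase domain of the receptor HER2, and PIK3CA E545K changes the catalytic subunit of PI3K, a lipid kinase. All 12 cultures shared the MCF-10A background, a medium with physiologic EGF and no other treatment, and were harvested between day 7 and day 14, when the co-cultures held about 75% HER2-mutant and 25% PIK3CA-mutant cells by droplet digital PCR. The labels name no parental line without either mutation, do not say whether each line is 1 clone, and do not give the harvest day of each array. Levels below are the authors' log2 probe-set signals, on which 1 unit is a doubling, and they are compared between arrays for the same gene only, since different probe sets differ in brightness.

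Integrins are receptors of 1 alpha and 1 beta subunit that span the membrane and hold cells to the extracellular matrix. The subunits decide the ligand: α6β4 and α3β1 bind laminins, α2β1 binds collagen, and α5β1 and the αv integrins bind fibronectin and other proteins that carry the RGD motif. Laminins are trimers of an alpha, a beta and a gamma chain in basement membranes, and in mammary epithelium laminin-332 and α6β4 join the basal cells to that membrane through hemidesmosomes.

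LAMA3, LAMA5, LAMB3 and ITGA1 were not analysed here. A gene was called above the detection limit on an array if its signal exceeded the 30th percentile of that array's probe sets, which lay between 4.29 and 4.45. Of the 33 members, 18 were above it on all 12 arrays, 5 on at least 4 arrays but not all (ITGA4, ITGA7, ITGAM, LAMB4 and LAMC3) and 10 on fewer than 4. Those 10 (ITGA8, ITGA9, ITGA10, ITGA11, ITGAD, ITGAL, ITGB2, ITGB3, ITGB7 and LAMA2) had signals between 2.62 and 4.57 and were not tested. The closest to the filter was ITGB2, the beta subunit of leukocyte integrins, which averaged 3.68 ± 0.22 in co-cultures, 3.53 ± 0.30 in HER2-mutant cultures and 4.43 ± 0.19 in PIK3CA-mutant cultures (SD, n = 4 each), and was above the limit on 3 arrays, all PIK3CA-mutant. The 23 genes that passed were 16 integrin subunits and 7 laminin chains.

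The 12 arrays had medians between 6.41 and 6.49, and no 2 arrays held the same values. Basal keratin KRT5, epithelial cadherin CDH1 and the adhesion molecule EPCAM were above the limit on every array, so markers of the labelled epithelial type were present. Of 20 markers of fibroblasts, endothelium, blood and platelets with a probe set, 11 passed the filter. On all 12 arrays 7 were above the limit (COL1A1, COL1A2, DCN, VWF, CD14, GP1BA and PF4), and 6 were above it on no array (CDH5, KDR, TEK, LUM, LYZ and GP9). The negative control probe sets, 612 in number, had array medians of 3.5 to 3.58 in co-cultures, 3.63 to 3.79 in HER2-mutant cultures and 3.39 to 3.57 in PIK3CA-mutant cultures, so background was highest on the HER2-mutant arrays. Between 24.3% and 31.9% of these controls exceeded the limit, and a call on a gene near the limit is read with that in mind. ERBB2 and PIK3CA were not analysed here, so the genotypes were not checked by their signal.

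The genes on which most of the account turns are ITGB5 and ITGA2, which differed most between the lines, LAMB1, which differed the other way, and ITGB1, the only member outside both lines in co-culture. Their upstream windows are shown to place these genes in the genome and to let their sequence be compared. Each is the stretch of 250 bases that ends just before the RefSeq transcription start on GRCh38.p14, read 5′ to 3′ on the gene's strand (for genes with several listed starts, the one farthest upstream). ITGB5 lies on the minus strand at chr3:124901419-124901668, ITGA2 on the plus strand at chr5:52989102-52989351, LAMB1 on the minus strand at chr7:108003162-108003411 and ITGB1 on the minus strand at chr10:32958231-32958480. Capitals mark the GC box GGGCGG and the ETS core CCGGAA on either strand.
ITGB5: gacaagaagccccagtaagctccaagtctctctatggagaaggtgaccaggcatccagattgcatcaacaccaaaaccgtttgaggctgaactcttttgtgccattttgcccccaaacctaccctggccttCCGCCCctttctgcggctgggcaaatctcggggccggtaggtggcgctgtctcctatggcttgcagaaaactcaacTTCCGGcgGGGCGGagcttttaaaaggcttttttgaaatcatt
ITGA2: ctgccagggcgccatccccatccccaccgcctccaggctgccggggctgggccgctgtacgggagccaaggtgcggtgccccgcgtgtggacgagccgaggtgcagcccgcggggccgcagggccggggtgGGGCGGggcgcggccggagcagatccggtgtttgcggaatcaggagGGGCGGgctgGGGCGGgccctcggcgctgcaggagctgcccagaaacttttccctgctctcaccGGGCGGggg
LAMB1: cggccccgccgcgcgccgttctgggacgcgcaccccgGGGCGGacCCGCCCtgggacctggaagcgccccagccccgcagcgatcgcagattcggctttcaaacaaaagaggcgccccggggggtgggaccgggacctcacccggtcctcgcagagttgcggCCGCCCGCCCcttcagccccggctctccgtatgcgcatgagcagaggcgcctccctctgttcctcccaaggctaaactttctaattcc
ITGB1: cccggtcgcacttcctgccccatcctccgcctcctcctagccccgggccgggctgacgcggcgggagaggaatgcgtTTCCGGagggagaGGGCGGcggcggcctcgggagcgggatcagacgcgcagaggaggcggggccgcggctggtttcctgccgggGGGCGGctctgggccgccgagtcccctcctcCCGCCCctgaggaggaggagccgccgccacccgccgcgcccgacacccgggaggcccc
The GC box occurred 2 times in the ITGB5 window, 4 times in ITGA2, 4 times in LAMB1 (2 of its matches overlap) and 3 times in ITGB1. One ETS core was found in each of the ITGB5 and ITGB1 windows. The AP-1 motif TGANTCA was in none of these windows. Over all 35116 RefSeq windows of this length, 42.6% held a GC box, 14.5% an ETS core and 6.57% an AP-1 motif. Of 33 windows listed for 26 integrin and laminin genes, with or without a named probe set, 17, 5 and 2 held them. ITGA2 and LAMB1, which moved in opposite directions between the lines, therefore had the same number of GC boxes. The motifs and the windows were picked after the signals were known, and a match describes letters only.

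Between the lines grown alone, 9 of the 16 integrin subunits tested were lower in the HER2-mutant line and 2 were higher. The laminin beta chains LAMB1 and LAMB2 were higher there. By limma with p adjusted over all 12774 genes tested, 15 of the 23 members passed an adjusted p of 0.05: 5 were higher and 10 were lower in HER2-mutant than in PIK3CA-mutant cultures. Of all genes tested, 59.4% passed (30% higher and 29.4% lower), so a call in itself is common in this comparison. At a difference of at least 1 log2 unit, 2 members were higher and 8 lower, against 9% and 12.2% of all genes. The median difference of the members was -0.17 and that of all genes 0.05. The median absolute difference was 0.59 for the members and 0.44 for all genes. The share of all genes whose arrays did not overlap between groups was not computed. Statements on overlap, here and below, therefore describe single genes and have no background to be read against. Each gene had 4 arrays a group, and the labels do not say how far the 4 cultures were independent, so the p-values measure the spread between these cultures. In bulk RNA, fewer cells of a kind and less RNA per cell cannot be told apart.

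**Figure D1:**
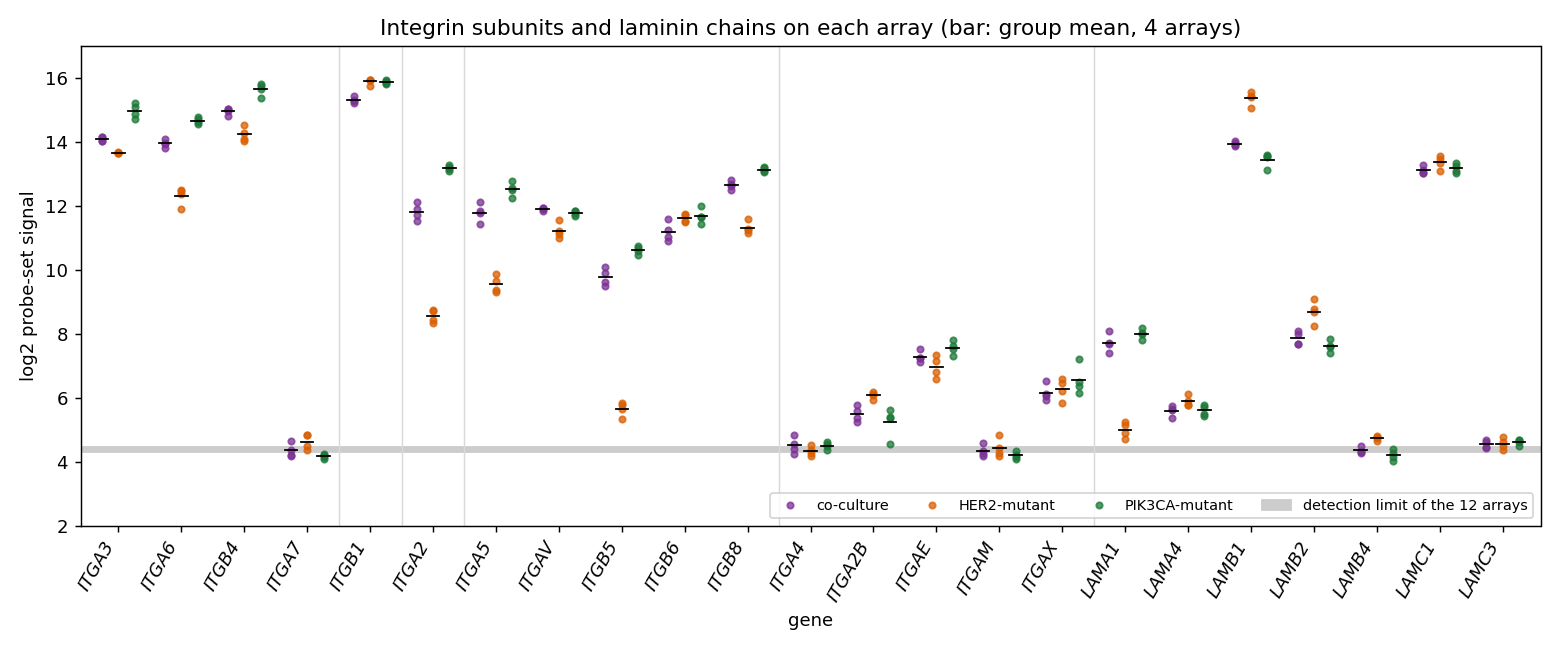
Log2 probe-set signal (vertical axis) of the 23 integrin and laminin genes that passed the filter, with 1 point per array, a bar at the mean of 4 arrays, and co-culture, HER2-mutant and PIK3CA-mutant arrays from left to right for each gene. The grey band spans the detection limits of 4.29 to 4.45, and thin vertical lines part laminin receptors, ITGB1, ITGA2, RGD receptors, other subunits and laminin chains. The HER2-mutant arrays lie far below the others for ITGA2, ITGA5, ITGB5 and LAMA1, and above them for LAMB1.

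All 4 laminin receptor subunits passed the test, 3 lower and 1 higher in HER2-mutant cultures, with a median of -1.36. Of all genes, 59.4% passed (30% higher and 29.4% lower). ITGA6 encodes α6, the partner of β4 in hemidesmosomes, and its signals were 12.36, 12.50, 12.46 and 11.90 in HER2-mutant cultures, against 14.70, 14.77, 14.56 and 14.61 in PIK3CA-mutant cultures. The groups were far apart, and the difference was -2.36 ± 0.10 (SE; 5.12-fold lower, limma adjusted p = 3.94e-15). ITGB4, the β4 subunit that reaches the keratin cytoskeleton, had 14.29, 14.53, 14.04 and 14.10 in HER2-mutant cultures, against 15.38, 15.81, 15.66 and 15.74 in PIK3CA-mutant cultures. Again no HER2-mutant array reached the lowest PIK3CA-mutant one, and the difference was -1.41 ± 0.10 (2.65-fold lower, limma adjusted p = 2.04e-11).

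ITGA3, the α3 subunit of the other main laminin-332 receptor, had 13.66, 13.66, 13.67 and 13.64 in HER2-mutant cultures, against 14.72, 15.09, 14.87 and 15.23 in PIK3CA-mutant cultures. The HER2-mutant values were nearly identical to each other, and all lay below the PIK3CA-mutant ones, by 1.32 ± 0.09 on the log2 scale (2.5-fold lower, limma adjusted p = 6.66e-12). The exception in this class was ITGA7, a laminin receptor subunit best known from muscle. It had 4.82, 4.49, 4.37 and 4.83 in HER2-mutant cultures, against 4.16, 4.23, 4.20 and 4.09 in PIK3CA-mutant cultures. All PIK3CA-mutant arrays were at or below the detection limit, and so was HER2-mutant replicate 3 (4.37, limit 4.39). Set against the limit, the mean of the HER2-mutant line was 1.26-fold higher (0.33 on the log2 scale), which leaves out the spread. The difference between the lines was 0.46 (95% interval 0.13 to 0.78, limma adjusted p = 0.016). The interval reached below 0.33, so a smaller fold was not excluded. The background was also higher on the HER2-mutant arrays, and its part in this call was not tested. The call was lost without HER2-mutant replicate 1, at an adjusted p of 0.0512, and with quantile scaling, at 0.0594.

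The collagen receptor subunit ITGA2, which pairs with β1, showed one of the widest gaps. Its signals were 8.74, 8.42, 8.72 and 8.34 in HER2-mutant cultures, against 13.09, 13.14, 13.22 and 13.28 in PIK3CA-mutant cultures. The spread within either group was a small part of the gap, which was -4.62 ± 0.12 (24.7-fold lower, limma adjusted p = 3.37e-19). ITGA10 and ITGA11, the other collagen receptor subunits with a probe set, were below the limit on all 12 arrays.

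The receptors for fibronectin and other RGD ligands were lower in the HER2-mutant line in 4 of the 5 genes tested, with a median of -1.81, and 0 were higher. Among all genes 29.4% were lower and 30% higher. ITGB5, the β5 subunit that joins αv to bind vitronectin, had 5.84, 5.32, 5.64 and 5.77 in HER2-mutant cultures, against 10.45, 10.58, 10.74 and 10.68 in PIK3CA-mutant cultures. Its difference of -4.97 ± 0.15 (31.4-fold lower, limma adjusted p = 3.56e-18) was the widest among the members, with the HER2-mutant signals about 1 unit above the limit. ITGA5, the α5 subunit of the classical fibronectin receptor, had 9.88, 9.64, 9.37 and 9.31 in HER2-mutant cultures, against 12.26, 12.57, 12.77 and 12.49 in PIK3CA-mutant cultures. The groups were again apart, with a difference of -2.97 ± 0.14 (7.83-fold lower, limma adjusted p = 1.67e-14).

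ITGB8, the β8 subunit through which αvβ8 activates latent TGF-beta, had 11.26, 11.59, 11.14 and 11.29 in HER2-mutant cultures, against 13.10, 13.17, 13.21 and 13.06 in PIK3CA-mutant cultures. No arrays overlapped, and it was 3.52-fold lower (-1.81 ± 0.10, limma adjusted p = 1.22e-13). The αv subunit itself, ITGAV, differed less: 11.56, 11.22, 11.11 and 11.0 in HER2-mutant cultures, against 11.85, 11.85, 11.68 and 11.75 in PIK3CA-mutant cultures. That was a difference of -0.56 ± 0.10 (1.47-fold lower, limma adjusted p = 7.04e-05), without overlap. ITGB6, the epithelial β6 subunit, gave -0.06 (95% interval -0.34 to 0.21, adjusted p = 0.708) and its arrays overlapped.

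The shared β1 subunit did not pass the test between the lines, and the γ1 chain was close to the threshold. ITGB1, the partner of α2, α3 and α5, had 15.95, 15.76, 15.92 and 15.94 in HER2-mutant cultures, against 15.82, 15.92, 15.83 and 15.91 in PIK3CA-mutant cultures. The groups overlapped, and the 95% interval of the difference was -0.11 to 0.15. LAMC1, the γ1 chain of most laminins, differed by 0.20 (interval 0.00 to 0.40, limma adjusted p = 0.0852). By limma it did pass under quantile normalization (0.28, adjusted p = 0.0148), with array weights (0.24, 0.0385), without HER2-mutant replicate 4 (0.29, 0.0102) and without PIK3CA-mutant replicate 2 (0.26, 0.0376).

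Among the 7 laminin chains tested, 3 were higher in HER2-mutant cultures and 1 was lower, with a median of 0.28. That is 57.1% past the threshold, near the 59.4% of all genes. LAMB1, the β1 chain of laminin-111 and laminin-511, had 15.41, 15.57, 15.43 and 15.05 in HER2-mutant cultures, against 13.13, 13.56, 13.52 and 13.58 in PIK3CA-mutant cultures. Every HER2-mutant array was above every PIK3CA-mutant one, by 1.92 ± 0.10 (3.77-fold, limma adjusted p = 1.42e-13). LAMB2, the β2 chain that replaces β1 in laminin-521, had 8.24, 9.09, 8.67 and 8.78 in HER2-mutant cultures, against 7.60, 7.41, 7.63 and 7.84 in PIK3CA-mutant cultures. It was 2.11-fold higher without overlap (1.08 ± 0.17, limma adjusted p = 6.41e-06).

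LAMA1, the α1 chain of laminin-111, went the other way. Its signals were 4.90, 5.16, 5.23 and 4.71 in HER2-mutant cultures, against 7.98, 8.18, 7.82 and 8.02 in PIK3CA-mutant cultures, which was 8.01-fold lower (-3.0 ± 0.17, limma adjusted p = 2.95e-13). The HER2-mutant signals lay close above the limits of those arrays (4.39 to 4.45), and the part of background in the size of this fold was not tested. An alpha chain and a beta chain of the same trimer thus differed in opposite directions at the RNA level. LAMB4, whose product is little studied, averaged 4.74 ± 0.06 in HER2-mutant cultures and 4.21 ± 0.17 in PIK3CA-mutant cultures (SD, n = 4 each; limma adjusted p = 0.00294). These values straddle the limit, on arrays whose background differed in the same direction, and the part of background was not tested. LAMA4, the α4 chain known from vessel walls, and LAMC3, the γ3 chain, did not pass (0.28 with an adjusted p of 0.12, and -0.05 with an adjusted p of 0.772).

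One fibroblast marker, DCN, moved with the laminin chains LAMB1 and LAMB2. The summed signal of the fibroblast list had log2 values of 9.59 to 9.78 in co-cultures, 10.93 to 11.30 in HER2-mutant cultures and 8.95 to 9.44 in PIK3CA-mutant cultures. Of 7 markers listed, 6 had a probe set, 4 passed the filter and LUM was above the limit on no array. Of the 4, only DCN passed between the lines (3.62, limma adjusted p = 2.91e-14). It encodes the matrix proteoglycan decorin and averaged 8.03 ± 0.36 in co-cultures, 10.70 ± 0.19 in HER2-mutant cultures and 7.07 ± 0.34 in PIK3CA-mutant cultures (SD, n = 4 each). COL1A1, COL1A2 and PDGFRA gave 0.09, 0.14 and 0.21 and did not pass. Whether DCN bears on the laminin difference was not tested.

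The remaining integrins are best known from blood cells. ITGA2B, the platelet αIIb subunit, averaged 6.08 ± 0.10 in HER2-mutant cultures and 5.23 ± 0.47 in PIK3CA-mutant cultures (SD, n = 4 each), a difference of 0.85 ± 0.19 (limma adjusted p = 0.000664). Its partner ITGB3 was below the limit on all 12 arrays. ITGAE, the αE subunit of intraepithelial lymphocytes, averaged 6.97 ± 0.34 in HER2-mutant cultures and 7.56 ± 0.22 in PIK3CA-mutant cultures, and passed at an adjusted p of 0.00511 in limma although single arrays overlapped. ITGAX, ITGAM and ITGA4 did not pass, with differences of -0.28, 0.23 and -0.17. The summed blood markers were 7.95 to 8.44 in co-cultures, 6.90 to 7.19 in HER2-mutant cultures and 7.82 to 8.23 in PIK3CA-mutant cultures, and the sum followed CD14, which was lower in HER2-mutant than in PIK3CA-mutant cultures (-2.12, limma adjusted p = 3.09e-09). The T cell marker CD3E of the same list was higher there by 0.54 (limma adjusted p = 0.0227), and the leukocyte marker PTPRC was above the limit on 1 of 12 arrays. That list holds 5 genes with a probe set, ITGAM among them, and its part in these differences was not tested.

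**Figure D2:**
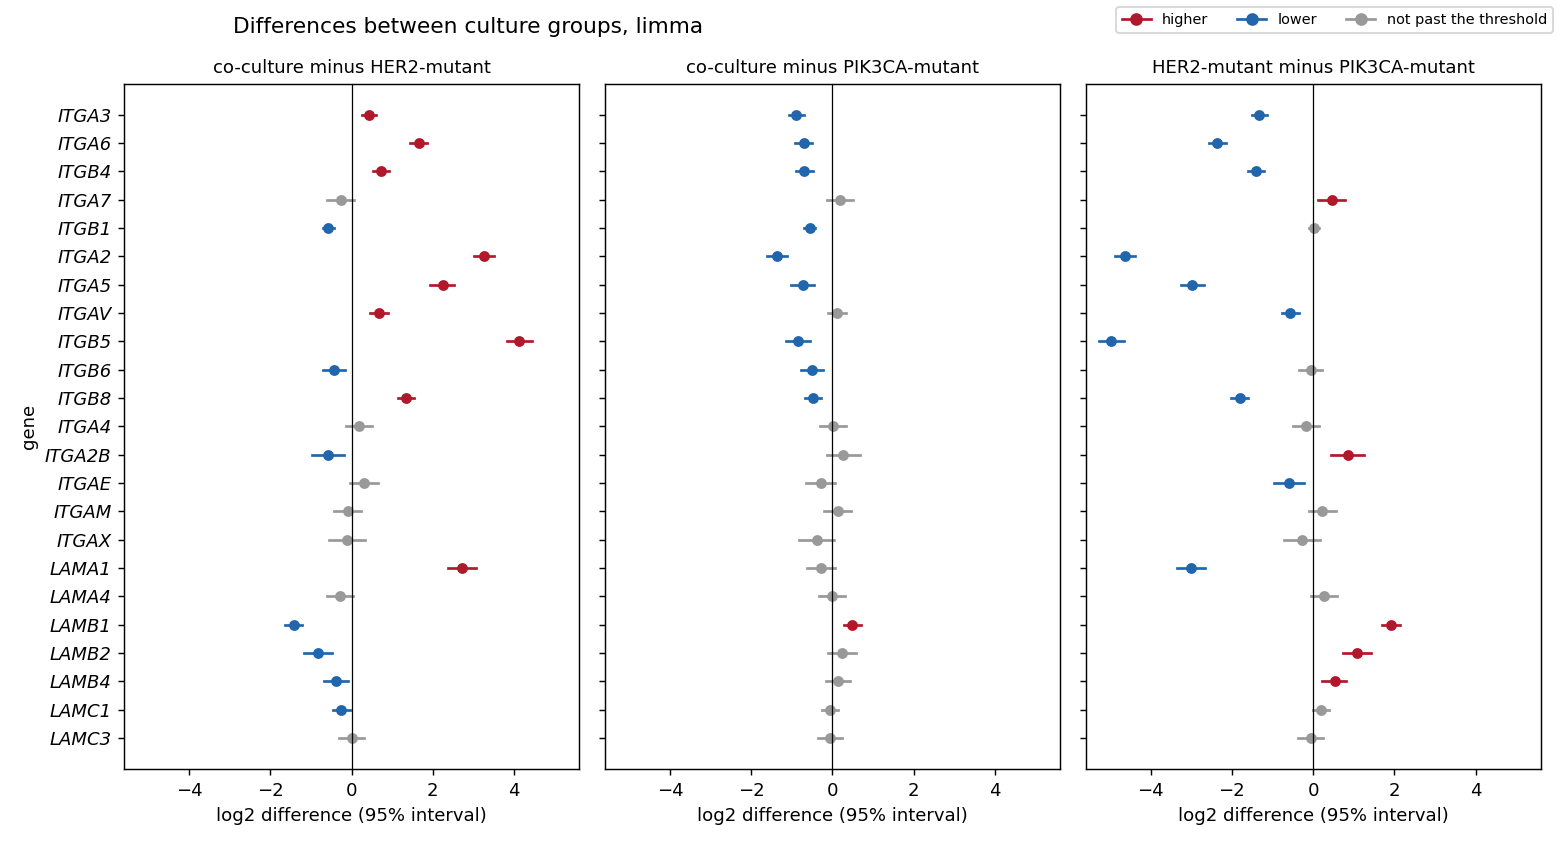
Log2 differences (horizontal axes) with 95% intervals from limma for the 23 genes tested, in 3 panels for co-culture minus HER2-mutant, co-culture minus PIK3CA-mutant and HER2-mutant minus PIK3CA-mutant. Red points were higher and blue points lower at an adjusted p of 0.05, and grey points did not pass. The widest differences are those of ITGB5 (-4.97) and ITGA2 (-4.62) in the right panel, and ITGB1 is blue in both co-culture panels and grey in the right one.

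Other genes of the adhesion pathway were read in 6 lists. Ligands of RGD receptors held the largest differences: of 9 genes tested, 4 were lower in HER2-mutant cultures and 2 higher. The share of all genes that passed was 59.4%. THBS1 (thrombospondin-1) had 4.81, 5.94, 5.16 and 5.55 in HER2-mutant cultures, against 15.47, 15.83, 15.49 and 15.68 in PIK3CA-mutant cultures (-10.25 ± 0.22, limma adjusted p = 1.47e-20). FN1, which encodes fibronectin, the ligand of α5β1, had 5.45, 6.44, 5.75 and 5.78 in HER2-mutant cultures, against 13.13, 13.02, 13.24 and 13.23 in PIK3CA-mutant cultures (-7.30 ± 0.14, limma adjusted p = 3.73e-21). A fibronectin receptor subunit and fibronectin itself were thus both lower in the HER2-mutant line. MFGE8, a milk fat globule protein with an RGD motif, was higher by 0.73.

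Proteins that also bind laminin outside the integrin family were lower in 3 of 4 cases and higher in 0: the proteoglycans SDC1 by -1.82, SDC4 by -1.73 and GPC1 by -1.30. The hemidesmosome list was mixed, with the tetraspanin CD151 lower (-1.13) and the plakins DST (0.86) and PLEC (0.57) higher, all 3 genes tested having passed. Basement membrane partners were split evenly, 4 higher and 4 lower of 8. The collagen IV chains COL4A1 (-1.93) and COL4A2 (-1.26) and the laminin-binding netrin NTN4 (-1.91) differed most. Of 19 adaptors and activators, 5 were higher and 8 lower, led by PXN (paxillin, -1.37), PARVB (-1.35) and TNS4 (-1.10). Of 3 proteases tested that process laminin or related matrix, BMP1 was lower by 1.64 and MMP14 higher by 0.99. All of these passed by limma, beside the 59.4% of all genes that did.

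In co-culture, most members that had differed between the lines lay between them. The comparisons that follow share the co-culture arrays with each other and the single cultures with the comparison above, so their values are set side by side and not counted as separate evidence. Against the HER2-mutant line, 9 of 23 members were higher and 7 lower in co-culture, where 50.9% of all genes passed (24.9% higher and 26% lower). Against the PIK3CA-mutant line, 1 was higher and 9 were lower, where 25.6% of all genes passed (11.1% higher and 14.6% lower). Median differences were 0.00 and -0.28 for the members, against -0.05 and -0.02 for all genes.

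On the log2 scale, ITGB5, ITGA2 and ITGA5, which were low in the HER2-mutant line, lay closer to the PIK3CA-mutant level in co-culture. On the linear scale ITGA2 lay nearer to the HER2-mutant level (3605 in co-cultures, 376.2 in HER2-mutant and 9282.2 in PIK3CA-mutant cultures). ITGB5 had 10.09, 9.90, 9.61 and 9.49 in co-cultures, which were 17.5-fold above HER2-mutant cultures (4.13 ± 0.15, limma adjusted p = 1.81e-16) and 1.79-fold below PIK3CA-mutant cultures (-0.84 ± 0.15, limma adjusted p = 0.000157). ITGA2 had 12.11, 11.72, 11.89 and 11.54 in co-cultures, 9.58-fold above HER2-mutant and 2.57-fold below PIK3CA-mutant cultures. ITGA5 had 12.11, 11.84, 11.78 and 11.42 in co-cultures, 4.71-fold above HER2-mutant and 1.66-fold below PIK3CA-mutant cultures. For these receptors no co-culture array overlapped with either single culture, and how common that was among all genes was not computed.

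The laminin receptors lay in the same order. ITGA6 had 13.93, 14.10, 13.96 and 13.82 in co-cultures, 3.13-fold above HER2-mutant and 1.63-fold below PIK3CA-mutant cultures. ITGB4 had 14.81, 15.02, 15.03 and 14.98, 1.65-fold above HER2-mutant and 1.61-fold below PIK3CA-mutant cultures. ITGA3 had 14.02, 14.15, 14.15 and 14.03, 1.35-fold above HER2-mutant and 1.85-fold below PIK3CA-mutant cultures. All of these differences passed by limma without overlap of arrays, the highest adjusted p being 0.000222.

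ITGB8 lay between the lines too, with 12.81, 12.50, 12.69 and 12.63 in co-cultures, 2.52-fold above HER2-mutant and 1.40-fold below PIK3CA-mutant cultures. ITGAV had 11.92, 11.89, 11.83 and 11.94 in co-cultures, above HER2-mutant cultures by 0.67 ± 0.10 (limma adjusted p = 1e-05) and not past the threshold against PIK3CA-mutant cultures (0.11, 95% interval -0.10 to 0.33). LAMA1 behaved alike, with 7.41, 7.70, 8.08 and 7.68 in co-cultures, 6.58-fold above HER2-mutant cultures and with an interval of -0.63 to 0.06 against PIK3CA-mutant cultures. In these genes the co-culture arrays overlapped with the PIK3CA-mutant arrays only for ITGAV and LAMA1.

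The laminin beta chains LAMB1 and LAMB2 were lower in co-culture than in HER2-mutant cultures. LAMB1 had 13.97, 13.86, 13.91 and 14.02 in co-cultures, below all HER2-mutant arrays by 1.42 ± 0.10 on the log2 scale (limma adjusted p = 5.31e-11) and above all PIK3CA-mutant arrays by 0.49 ± 0.10 (limma adjusted p = 0.00087). LAMB2 had 7.69, 8.09, 8.0 and 7.68 in co-cultures, below HER2-mutant cultures by 0.83 ± 0.17 (limma adjusted p = 0.00021) and with an interval of -0.10 to 0.59 against PIK3CA-mutant cultures. Differences from the HER2-mutant line for ITGA2B (-0.58), LAMB4 (-0.39) and LAMC1 (-0.25) also passed, at limma adjusted p of 0.0157, 0.0281 and 0.0349. Without co-culture replicate 1 none of these last 3 passed, which left 4 members lower instead of 7. LAMB4 was also lost without HER2-mutant replicate 1 or 4 or co-culture replicate 2 or 3, and LAMC1 without HER2-mutant replicate 1, 2 or 3 or co-culture replicate 2 or 3, at adjusted p of 0.0502 to 0.128. ITGA4, ITGA7, ITGAE, ITGAM, ITGAX, LAMA4 and LAMC3 passed in neither co-culture comparison, with differences between -0.39 and 0.31.

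A mixture of unlike cells has a level between those of its parts even if no cell changes. An expected blend was therefore formed as 75% of the mean linear HER2-mutant signal plus 25% of the PIK3CA-mutant one, which takes both lines to hold the same amount of RNA per cell. Against it, 8 of 23 members were higher and 4 lower in co-culture, while 40.8% of all genes passed (18.5% higher and 22.3% lower). The median difference was -0.03 for the members and -0.05 for all genes.

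The 5 tested RGD receptor subunits all differed from the blend, 4 higher and 1 lower, where 40.8% of all genes did. LAMA1 was furthest above it among all members, at a mean of 7.72 against a blend of 6.46 (1.26 ± 0.15, limma adjusted p = 4.99e-07). ITGB5 averaged 9.77 against 8.75 (1.02 ± 0.14, adjusted p = 4.15e-06) and ITGA5 11.79 against 10.99 (0.80 ± 0.13, adjusted p = 2.23e-05). ITGB8 and ITGA6 were each 0.63 above the blend, ITGAV 0.51 and ITGA2 0.47. The laminin receptors were split, with ITGA6 and ITGB4 above and ITGA3 and ITGA7 not past the threshold.

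Below the blend were LAMB1 (13.94 against 15.07, -1.13 ± 0.10, limma adjusted p = 4.39e-09), LAMB2 (-0.63), ITGB1 (-0.57) and ITGB6 (-0.45). ITGA3 averaged 14.09 against 14.11 (95% interval of the difference -0.18 to 0.13). The assumed share of cells mattered for some of these: with 65% HER2-mutant cells, ITGA2 was 0.05 above the blend (adjusted p = 0.81) and ITGB4 0.06 (adjusted p = 0.622). ITGB4 was close to the threshold in any case, at 0.22 ± 0.09 with a limma adjusted p of 0.0416. It was lost without HER2-mutant replicate 3 or 4, PIK3CA-mutant replicate 1 or 3, or co-culture replicate 2, 3 or 4. The difference was then 0.18 to 0.22. Blends with less than 65% HER2-mutant cells were not run. The share of HER2-mutant signal that would give the co-culture level, described below, had lower medians. These were 45.7% over 10 members and 30.2% over 2713 genes. Whether the calls against the blend hold at such shares was not tested, apart from ITGB1, which lay below both lines.

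**Figure D3:**
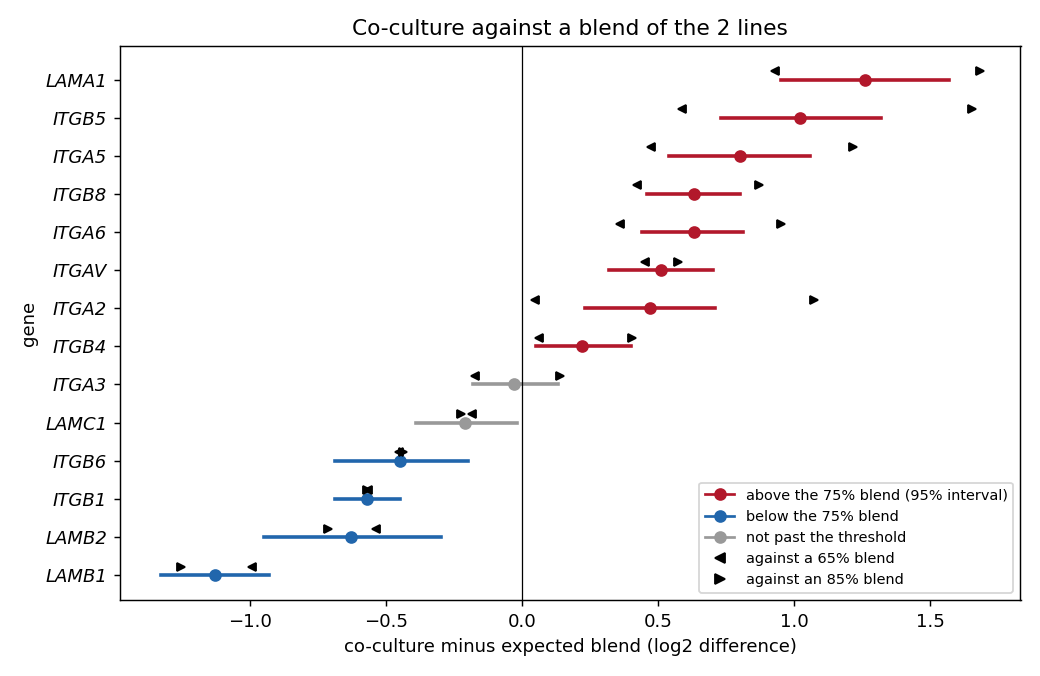
Difference between the co-culture mean and the expected blend of both lines (horizontal axis, log2) with 95% intervals, for the 12 members past the threshold and, for comparison, ITGA3 and LAMC1. Points stand for a blend of 75% HER2-mutant cells, and triangles show the same difference against blends of 65% and 85%. LAMA1 (1.26) and LAMB1 (-1.13) are furthest from 0, and ITGB1 and ITGB6 hardly move with the share.

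The place of the co-culture between the lines can also be put as the share of HER2-mutant signal that would give its linear level, over the 10 members that differed between the lines by at least 1 unit. It was 76.6% ± 4.77 for ITGA3, 63.7% ± 6.98 for ITGA2 and 60.7% ± 6.92 for ITGB4 (SD, n = 4 co-cultures). For ITGA6, ITGA5 and ITGB5 it was 48.2% ± 6.32, 45.7% ± 13.4 and 45.7% ± 11.1, and for ITGB8 39.6% ± 8.96. The laminin chains had 20.4% ± 18.7 for LAMA1, 16.7% ± 15.8 for LAMB2 and 14.7% ± 2.35 for LAMB1. Single co-cultures ranged from -6.57% to 38.4% for LAMA1 and from 3.94% to 34.8% for LAMB2, which overlap with ITGB8 (28.6% to 50.1%) and ITGA5 (28.5% to 61.2%). The members had a median of 45.7% and all 2713 genes that differed as much had 30.2%. This reading was added after the signals were known and is a description without a test.

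A level above or below both lines is one that no blend of the 2 lines gives. By that measure 1 member was lower and 0 were higher, where 1.86% of all genes passed (1.01% higher and 0.845% lower). ITGB1 had 15.43, 15.30, 15.29 and 15.23 in co-cultures, and all HER2-mutant arrays were at 15.76 or more and all PIK3CA-mutant arrays at 15.82 or more. No co-culture array reached either line. The difference was -0.57 ± 0.06 against HER2-mutant cultures and -0.55 ± 0.06 against PIK3CA-mutant cultures, which is 1.49-fold and 1.47-fold lower, and the limma adjusted p for lying below both was 8.59e-06.

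ITGB6 pointed the same way with more scatter. It had 11.60, 11.01, 11.23 and 10.91 in co-cultures, 11.54, 11.74, 11.71 and 11.48 in HER2-mutant cultures and 11.98, 11.43, 11.66 and 11.64 in PIK3CA-mutant cultures. Co-culture replicate 1 overlapped with both lines and the other 3 co-cultures lay below all arrays of both. It was lower than each line at a limma adjusted p of 0.00889 and 0.00735, but not below both at an adjusted p of 0.138, which was 0.0132 without co-culture replicate 1. At an unadjusted limma p under 0.05, ITGB1 and ITGB6 were lower and 0 members were higher. The share of all genes at that threshold was not computed, so this count has no background to be read against. The remaining 21 members did not pass, the next in size being ITGAX at -0.12 and ITGAV at 0.11.

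**Figure D4:**
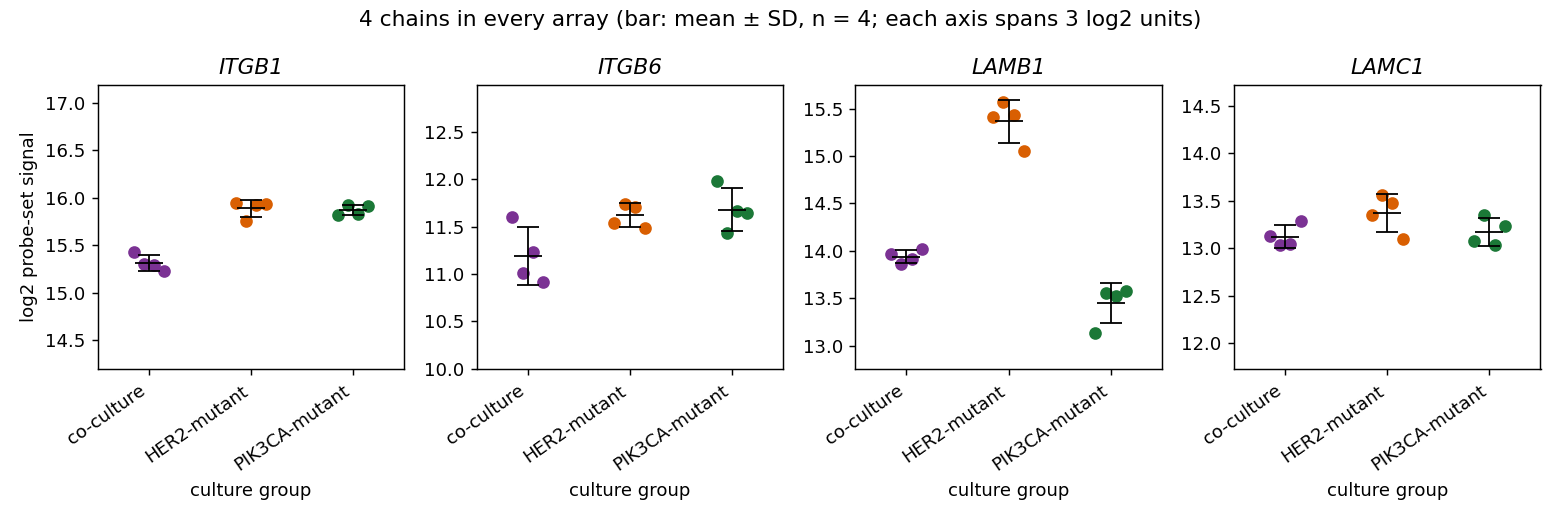
Log2 signal (vertical axes, each spanning 3 units) of ITGB1, ITGB6, LAMB1 and LAMC1 on every array, with 1 point per array and a bar at the mean ± SD of 4 arrays, for co-culture, HER2-mutant and PIK3CA-mutant cultures from left to right. The co-culture points of ITGB1 (15.23 to 15.43) lie below all points of both lines, and those of LAMB1 (13.86 to 14.02) lie between the lines.

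The basal keratin KRT5 was also below both lines. The summed signal of the 3 basal epithelial markers with a probe set was 17.21 to 17.25 in co-cultures, 17.41 to 17.51 in HER2-mutant cultures and 17.49 to 17.56 in PIK3CA-mutant cultures. That sum is mostly KRT5, which differed by -0.20 from the nearer line (limma adjusted p = 0.0335). The mean of KRT14 lay between those of the lines (8.54 in co-cultures, 8.85 in HER2-mutant and 8.26 in PIK3CA-mutant cultures), and CDH3 did not pass (-0.09). The general epithelial markers had sums of 14.31 to 14.43 in co-cultures, 14.31 to 14.64 in HER2-mutant cultures and 14.24 to 14.46 in PIK3CA-mutant cultures, and these overlapped. The sums hide opposite differences, since all 4 genes passed between the lines by limma. KRT8 (2.32) and CDH1 (0.72) were higher in HER2-mutant than in PIK3CA-mutant cultures, and KRT18 (-2.32) and EPCAM (-2.02) were lower. Whether the ITGB1 difference goes with KRT5 culture by culture was not tested.

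Some ligands and enzymes of the pathway also lay outside both lines. FN1 had 15.34, 15.20, 15.31 and 15.03 in co-cultures, 4.19-fold above the PIK3CA-mutant line and far above the HER2-mutant line (limma adjusted p = 4.73e-09). Of the 9 RGD ligands tested, FN1, CCN2 and LTBP1 were above both, and 0 were below both. Among all genes, 1.01% were above both and 0.845% below both. CCN2 and LTBP1 exceeded the nearer line by 1.10 and 0.70. THBS1, in contrast, had 14.33, 13.38, 13.47 and 12.92 in co-cultures and did not differ past the threshold from the blend (-0.10, 95% interval -0.55 to 0.36). The fibronectin receptor subunit ITGA5 was above its blend but below the PIK3CA-mutant line, so ligand and receptor had different places relative to the lines.

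TLL1, a protease related to BMP1, was lower than both lines, with 8.98, 9.04, 8.65 and 8.85 in co-cultures (-0.95 to the nearer line, limma adjusted p = 5.5e-05). Of 19 adaptors, TNS3 was below both by 0.41 (limma adjusted p = 0.0416) and 0 were above both. The shares of all genes were 0.845% below and 1.01% above. CCN2, LTBP1 and TNS3 were named after their values were seen, because these counts are small. The hemidesmosome, basement membrane and non-integrin laminin receptor lists had 0 genes outside both in limma. At an unadjusted p under 0.05 there were 2, AGRN at -0.40 and BCAM at 0.77, and the share of all genes there was not computed. Against the blend these lists had 1, 4 and 3 genes higher and 1, 3 and 0 lower, of 3, 8 and 4 tested. Of all genes, 18.5% were higher and 22.3% lower than the blend.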

How the data were processed

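RNA of 12 MCF-10A cultures was labelled with a whole-transcript biotin kit from 5 µg and hybridised to 1-colour arrays, per the labels' protocols. The deposited table holds 1 log2 signal per probe set and array. The authors processed it in the Transcriptome Analysis Console according to the submitters' processing notes. Its version, the background correction, the summarization, the normalization and the genome build are not given in the sources used here. Of 24351 probe sets, 17709 were named for 1 gene symbol, 0 for several and 6642 for none. Where a gene had more than 1 probe set (20 genes), its brightest one stood for it.

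Groups came from the labels. A gene was kept if it exceeded the 30th percentile of the array on at least 4 of 12 arrays, which left 12774. In limma 3.58.1 (R 4.3.3), 1 model with 3 groups was fitted to all arrays with a trend of the spread with signal, two-sided contrasts and Benjamini-Hochberg adjustment over all genes tested. The blend's standard error came from the delta method. For lying outside both lines, the higher p of the 2 contrasts was taken where the signs were the same, and the difference given is the smaller one. Where all arrays of a group were at or below the detection limit, the fold is a lower bound against the higher of that limit and the signal. It bounds the estimate and leaves out its spread.

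With 4 arrays in each group, their number sets the precision. The method was tested before use on simulated data, with noise drawn independently for each gene and array. Effects shared by a culture or a batch were not simulated, so that test does not cover them. The labels do not say whether replicate numbers pair cultures. Over 12 same-numbered pairs, correlations of deviations from the group means lay between -0.04 and 0.06. They show no strong deviation shared over all genes, and cannot settle whether cultures were grown in pairs. Alternatives changed the filter, scaling, variance model, array weights, block, samples in the fit, threshold, blend share and replicates. All 33 members with a named probe set in use are accounted for, and anything else under the rule is not reported here. Of each of the 6 pathway lists, up to 3 genes past the threshold with the largest difference between the lines and no overlap of arrays were named. The members and lists were chosen with earlier results of these data known.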

Additional observations from a re-analysis of the deposited data

Results flagged for a closer look

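Arrays far from the other 3 of their group were looked for in 69 groups of 4, with Dixon's test at the 95% level. It marked 2 groups, and chance marks about 1 in 20. HER2-mutant replicate 2 had an ITGB1 signal of 15.76, with the other HER2-mutant arrays at 15.92 to 15.95. PIK3CA-mutant replicate 1 had a LAMB1 signal of 13.13, with the other PIK3CA-mutant arrays at 13.52 to 13.58.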

How the results depend on the processing

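Of 54 differences called for single members, 30 kept direction and call under every alternative run (for ITGB1 below both lines, which was among them, these were 21). With a tested margin of 0.5 log2 units, the members higher in HER2-mutant than in PIK3CA-mutant cultures were 2 instead of 5, those lower in co-culture than in HER2-mutant cultures 1 instead of 7, and those higher and lower in co-culture than in PIK3CA-mutant cultures 0 and 2 instead of 1 and 9. The matching counts of all genes were 1560 higher and 1962 lower (instead of 3826 and 3760), 1330 and 938 (3181 and 3322), and 192 and 247 (1413 and 1860). A filter at the 50th percentile also gave 2 members higher in the HER2-mutant line, since it drops genes near the limit. Without the trend, 84 genes lay above and 63 below both lines (instead of 129 and 108), and the cause was not tested. Leaving out 1 culture at a time gave 4 to 6 members higher in HER2-mutant than PIK3CA-mutant cultures, 4 to 7 lower in co-culture than in HER2-mutant cultures, and 1 to 2 below both lines. Of all genes, 68 to 105 lay below both lines, fewest without co-culture replicate 3. Signs turned 28 times, always for differences that did not pass in either fit. ITGB6 between the lines became 0.029 with quantile scaling and 0.04 without PIK3CA-mutant replicate 1. ITGA3 against the blend became 0.14 with 85% HER2-mutant cells and 0.01 without PIK3CA-mutant replicate 4. With quantile scaling, LAMC3 became 0.064 against the HER2-mutant line and 0.021 against the blend, ITGA4 -0.027 against the PIK3CA-mutant line (-0.02 with median centring) and ITGAM 0.012 against the blend. Array weights gave LAMA4 0.008 against the PIK3CA-mutant line. Leave-one-out ranges that crossed 0 were -0.061 to 0.063 (LAMC3, co-culture minus HER2-mutant), -0.065 to 0.032 (LAMC3 against the blend), -0.121 to 0.003 (LAMC3 between the lines), -0.096 to 0.094 (ITGA4), -0.063 to 0.071 (LAMA4) and -0.11 to 0.005 (LAMC1), each co-culture minus PIK3CA-mutant, -0.175 to 0.043 (ITGAM, co-culture minus HER2-mutant), -0.121 to 0.066 (ITGAM against the blend), -0.146 to 0.039 (ITGB6 between the lines) and -0.066 to 0.011 (ITGA3 against the blend). Quantile scaling moved the median difference of all genes by at most 0.01. The labels tie the replicate numbers to no shared batch, and a fit with a replicate block gave 10 lower and 5 higher members between the lines and changed no member's call. ITGB4 above the blend was lost in 12 of 22 alternatives, LAMB4 and LAMC1 below the HER2-mutant line in several. A call was gained 15 times, over 6 differences: LAMC1 between the lines (4 alternatives) and against the blend (5), ITGA2B against the blend (3), and in 1 alternative each LAMB4 against the blend, ITGAE against the HER2-mutant line and ITGB6 below both lines. Signals near the background, as for ITGA7, LAMB4, ITGA4, ITGAM and LAMC3, and for LAMA1 in HER2-mutant cultures, limit what could be seen.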
